A study of Mus musculus with 13 samples.

Results

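Small RNA reads of 25 to 28 nt that start with U, written as T in the deposited lists, the size of piRNAs bound by MILI, were followed through male germ cell development. The rule used only length and first base, and it found 3756152 of the 18788483 distinct sequences read in the 9 biological samples. All small RNAs were sequenced and no protein was pulled down, so binding by MILI was not measured, and the window also holds fragments of miRNAs, tRNAs, snoRNAs and other RNAs. Levels are given as RPM, reads-per-million of the reads in the sequence file.

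Germ cells came from C57BL6/J mice labelled as 3 to 4 weeks old and were purified by fluorescence-activated cell sorting with Hoechst-33342. The stages were spermatogonia (SG), leptotene/zygotene spermatocytes (LZ), then spermatocytes in pachytene/diplotene (PD), and lastly round spermatids (RS). A set of 5 single libraries held 1 SG, 2 LZ, 1 PD and 1 RS sample. A technical-replicate set held 2 spermatogonia samples (SG_T) and 2 leptotene/zygotene samples (LZ_T), each sequenced in a 50-bp and a 100-bp run, whose read counts were summed. No label gave a genotype. The deposited summary tables of the 8 technical-replicate libraries name a Pld6 knockout in their header cells, and mutant cells from lines crossed back to C57BL/6J were part of the study. Genotype was not used for grouping, so genotype, run and whatever else separates the sets cannot be told apart. The labels do not say whether biological replicates were separate animals, so p-values measure only the spread between these samples. Small RNAs carry no protein-coding markers, so the sorted stages were not checked against any. Depth was 12541019 to 29956080 reads per sample in the single-library set and 1810805 to 10764026 in the technical-replicate set. In the SG list the final line had no read count and was not used.

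PIWI-interacting RNAs (piRNAs) guide PIWI proteins to transposons and other transcripts in germ cells. MILI (PIWIL2) holds shorter piRNAs and is present from fetal germ cells to round spermatids, while MIWI (PIWIL1) holds longer ones from pachytene on. Primary piRNAs tend to start with U, and when a PIWI protein cuts a target, the new piRNA made from the cut tends to carry A at position 10, opposite that U. Pld6 (MitoPLD, Zucchini) encodes a nuclease of the mitochondrial surface that acts in making piRNAs.

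The sequences below were named by fixed rules on abundance and on test results, and are numbered U1 to U26. The first group shows the most abundant members of each group of samples and those with the highest lowest level over the 9 samples. Sequences are written 5′ to 3′ as DNA, with the base at position 10 in capitals.
U1: tttgaaatcAggactgttctggaaattc
U2: tcttagatcGatgtggtgctccgga
U3: tgatagctgAgctctgagtaggtagt
U4: tccctggtgGtctagtggttaggatt
U5: tggaatgatGacattctccggaatc
U6: tcactctcgGaacttgtatcttgtg
U9: tacactgtcGtgctcctgtacctagttc
U13: tacagactgAtaaacgatttaaagtaaa
U14: tgcaatgatGtcatcttactactgaaa
U18: tccctgtggTctagtggttaggattcgg

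MicroRNA-derived members are shown with bases 2 to 8, the seed, in capitals, above the mature miRNAs from RefSeq (GRCm38.p6) that they extend. U10 and U11 share a seed, and U8 has another.
U8: tGGAAGACtagtgattttgttgttt
U10: tGTAAACAtccccgactggaagctt
U11: tGTAAACAtcctcgactggaagctt
mmu-miR-7a-5p: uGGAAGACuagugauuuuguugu
mmu-miR-30a-5p: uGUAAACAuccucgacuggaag
U8 is miR-7a-5p with TT added, which the Mir7-1 hairpin encodes at chr13:58392839-58392863 on the minus strand, and U11 is miR-30a-5p with CTT added. U10 lies within the Mir30d hairpin.

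The next sequences were higher in LZ_T than in SG_T, again with position 10 in capitals.
U17: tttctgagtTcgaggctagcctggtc
U19: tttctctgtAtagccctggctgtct
U25: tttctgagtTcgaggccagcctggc
U26: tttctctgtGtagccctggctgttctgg

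Members that were lower in LZ_T than in LZ follow, beside U6 above.
U7: taggatcttCatagttcatgaacagg
U12: tgattacgaAggcttttctctggaag
U15: tacgatttgGtatcttaagaagtgac
U16: taaatactcTgtgaggcttcctatg

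Members of the fourth kind were higher in LZ_T than in LZ, and each differed at 1 base from a more abundant member. That base is in capitals in each member and in the sequence it resembles.
U20: tccctgtgTtctagtggttaggatt
U24: tccctgtggtctaTtggttaggatt
resembled by U20: tccctgtgGtctagtggttaggatt
U21: tcgaggccagcctTggctacacattt
resembled by U21: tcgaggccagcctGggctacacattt
U22: tgtaaacatccttTactggaagctt
resembled by U22: tgtaaacatccttGactggaagctt
U23: tggaagactagtTattttgttgttt
resembled by U23: tggaagactagtGattttgttgttt
Counted from 1 at the 5′ end, with the base of the more abundant sequence first, U20 is G9T, U23 is G13T, and U21, U22 and U24 are G14T.

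The first comparison asked how abundant these reads were at each stage. In the single-library set they stood at 121316 RPM in SG, 204628 and 177933 RPM in the 2 LZ samples, 250312 RPM in PD, and lastly 127440 RPM in RS. PD was highest, and SG and RS were both below the LZ samples. The order changes with the scale, since distinct sequences in PD were at 0.833 times LZ. SG, PD and RS have 1 library each, so these differences have no test. RPM values are shares of a library, so fewer cells that hold these RNAs and less of them per cell cannot be told apart.

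In the technical-replicate set they stood at 27831 and 17142 RPM in SG_T and at 36985 and 28406 RPM in LZ_T. Both LZ_T samples lay above both SG_T samples, by 1.45 times on average. The two-sided exact permutation test gave p = 0.333, below which a design of 2 against 2 samples cannot go. Without miRNA matches the groups overlapped, with 24638 and 15208 RPM in SG_T and 33174 and 24362 RPM in LZ_T (exact permutation test, p = 0.667). The level of all members also differed by run. In the 50-bp run it was 16243 and 13122 RPM in SG_T and 22350 and 23764 RPM in LZ_T. In the 100-bp run it was 30196 and 20719 RPM in SG_T and 39589 and 30231 RPM in LZ_T. The runs entered the sums at unequal shares between samples, and the part of run in the summed levels was not tested. Every sample of the technical-replicate set lay below every sample of the single-library set. LZ_T was at 0.171 times LZ, with no overlap (two-sided exact permutation test, p = 0.333), and SG was at 5.40 times the SG_T mean.

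Reads of the same length that start with another base did not follow this. They were at 50420 RPM in SG, 61857 and 57709 RPM in the LZ samples, 41763 RPM in PD and 22499 RPM in RS, and at 60755 and 41241 RPM in SG_T and 64499 and 43922 RPM in LZ_T. LZ_T and LZ overlapped here. The share of 25 to 28 nt reads that start with U was therefore 70.6% in SG (95% Wilson interval 70.6% to 70.7%), 76.8% and 75.5% in the LZ samples, 85.7% in PD (85.7% to 85.7%) and 85.0% in RS (84.9% to 85.1%). It was 31.4% and 29.4% in SG_T and 36.4% and 39.3% in LZ_T, above in LZ_T in all 4 pairs of samples (two-sided exact permutation test, p = 0.333). Such intervals cover counting error only.

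The first base itself differed between the sets in how G-starting reads were mirrored. In the 5 single libraries, among the 200 most abundant G-starting reads of this length, the sequence with T in place of the first G was read at a median of 16.4% to 19.1% of the G-starting read. For A-starting reads the median was 0% to 0.236%, and for C-starting reads 0% to 0.307%. In the 8 technical-replicate libraries the median for G was 0% to 1.87%. Taken times the level of all G-starting reads, this comes to 1.16% to 2.12% of the U-starting reads in the single-library set, and to no more than 0.936% in the technical-replicate set. What part it had in the U shares was not tested further.

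Relative to the longer reads of 29 to 32 nt that start with U, the MIWI size, the shorter ones fell away in later stages. The ratio of shorter to longer reads was 2.94 in SG, 2.11 and 2.49 in the LZ samples, 0.557 in PD and 0.221 in RS. It was 1.81 and 1.67 in SG_T and 2.00 and 2.14 in LZ_T. PD and RS were the only samples below 1. The rise in PD to 250312 RPM thus went with a larger rise of the longer reads, and as a share of all 24 to 33 nt reads the members were 29.6% in PD against 45.3% and 45.2% in the LZ samples.

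Most member reads were 26 or 27 nt long in the single-library set up to PD. SG reads were most often 27 nt long, against 26 nt in both LZ samples, 27 nt in PD and 28 nt in RS. It was 25 nt in both SG_T samples and 27 nt in both LZ_T samples. These are the most frequent lengths within the 25 to 28 nt window only. Over U-starting reads of 24 to 33 nt the most frequent length was also 27 nt in SG and 26 nt in both LZ samples. It was 30 nt in PD and RS, and 24 nt in every SG_T and LZ_T sample, all outside the window. In RS the 28-nt reads made up 40.7% of members against 27.1% in PD and 19.1% and 20.3% in LZ. The lengths were more evenly filled in the technical-replicate set, where no length held more than 29.6%. Without miRNA matches the most frequent length within 25 to 28 nt was 27 and 26 nt in the SG_T samples and unchanged in the others.

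A second measure of the longer reads was whether a member and a 29 to 32 nt read began with the same 25 bases. With every sample thinned to 31041 member reads and 18631 longer reads, this held for 18.8% of member reads in SG, 28.7% and 22.4% in the LZ samples, 36.7% in PD and 36.8% in RS. It held for 61.9% and 57.9% in SG_T and 61.3% and 60.5% in LZ_T. The samples of the technical-replicate set were all higher, and they also held fewer distinct sequences at that depth.

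Diversity differed most between the sets. In 31041 member reads, 83.5% were distinct sequences in SG, 78.2% and 83.6% in the LZ samples, 70.4% in PD and 71.0% in RS. The value was 38.4% and 41.8% in SG_T and 43.1% and 42.9% in LZ_T. The 100 most abundant members held 5.78% to 8.43% of member reads in the single-library set and 29.8% to 35.9% in the technical-replicate set. On the same reads-per-million scale, distinct sequences numbered 58065 in SG, 56074 and 72139 in the LZ samples, 53379 in PD, 35792 in RS, 7419 and 7169 in SG_T and 10594 and 7768 in LZ_T. Distinct counts on this scale depend on depth, unlike the thinned values.

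What these sequences matched was read from the transcripts of the mouse annotation (GRCm38, GENCODE release 21) by exact search. No genome was searched, so unmatched means only that no annotated transcript held the sequence. Unmatched members stood at 55474 RPM in SG, 146310 and 112303 RPM in the LZ samples, 215261 RPM in PD, and lastly 110520 RPM in RS. They were at 16472 and 11223 RPM in SG_T and 18475 and 12344 RPM in LZ_T. PD and RS were mostly of this kind, at 86.0% and 86.7% of member reads, against 45.7% in SG.

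Members that lay in sense within a single long gene were at 42746 RPM in SG, 41982 and 42849 RPM in the LZ samples, 27635 RPM in PD, and lastly 13212 RPM in RS. They were at 3482 and 1793 RPM in SG_T and 4153 and 2863 RPM in LZ_T. LZ was thus 12.1 times LZ_T in this class, with no overlap (two-sided exact permutation test, p = 0.333). Within protein-coding genes 75.9% of the located SG reads were in 3′ UTRs, and the share ran from 60.3% in PD to 75.9% over the 9 samples.

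Members that match hairpins listed as miRNAs were higher in LZ_T than in LZ, unlike members as a whole. They were at 4077 RPM in SG, 2538 and 3375 RPM in the LZ samples, 740 RPM in PD, 450 RPM in RS, 3173 and 1915 RPM in SG_T and 3797 and 4035 RPM in LZ_T. They therefore made up 10.3% to 14.2% of member reads in the technical-replicate set and 0.295% to 3.36% in the single-library set. The class also takes in repeated sequences in hairpins that the annotation lists as miRNA genes. U19 is such a member, at 24.3 and 37.4 RPM in LZ_T and 0.601 and 0.687 RPM in LZ. What part known miRNAs had in the difference was not tested. Of snoRNA matches there were 1509 RPM in SG, 1490 and 1819 RPM in LZ, 1524 and 813 RPM in SG_T and 1948 and 1313 RPM in LZ_T, with LZ and LZ_T overlapping. Matches to transcripts annotated as rRNA were at 1158 RPM in SG, 433 and 538 RPM in LZ, and at most 41.5 RPM in the other 6 samples. This class does not hold every rRNA fragment. Members within Gm42418, a lincRNA that overlaps ribosomal RNA sequence, were counted in the single-gene class. They were at 428 RPM in SG, 361 and 305 RPM in LZ, 926 and 588 RPM in SG_T and 711 and 231 RPM in LZ_T.

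Dispersed repeats were the class that set LZ_T apart from SG_T. A member was placed in it when it matched 10 or more annotated genes on either strand. It stood at 694 and 368 RPM in SG_T and at 5127 and 5396 RPM in LZ_T, 9.91 times higher in LZ_T with no overlap between the groups (two-sided exact permutation test, p = 0.333). In the single-library set it stood at 6709 RPM in SG, 3806 and 6401 RPM in the LZ samples, 745 RPM in PD, and lastly 187 RPM in RS. LZ_T therefore lay within the range of LZ, at 1.03 times its mean, although members as a whole were at 0.171 times. SG was 12.6 times SG_T. Dispersed members made up 13.9% and 19.0% of member reads in LZ_T, 2.49% and 2.15% in SG_T and at most 5.53% elsewhere.

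The authors' own retrotransposon tables give values for 24 to 27 nt reads of any first base, in RPM after reads were shared among consensus sequences. They were not limited to members and were used as a second view. Over 6 SINE sequences (short repeats copied with the help of LINE proteins) the sum was 5418 RPM in SG, 3204 and 4235 RPM in the LZ samples, 346 RPM in PD, 101 RPM in RS, 1616 and 1294 RPM in SG_T and 8069 and 9748 RPM in LZ_T. LZ_T was highest, with 52.9% and 56.1% of its reads antisense against 35.3% and 39.6% in SG_T.

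Over 19 LINE sequences, autonomous retrotransposons, the sum was 5823 RPM in SG, 2373 and 5429 RPM in the LZ samples, 309 RPM in PD, 252 RPM in RS, 180 and 170 RPM in SG_T and 274 and 214 RPM in LZ_T. Over 236 LTR and other listed sequences it was 7517 RPM in SG, 7112 and 11143 RPM in the LZ samples, 3146 RPM in PD, 794 RPM in RS, 393 and 199 RPM in SG_T and 2179 and 1565 RPM in LZ_T. In both of these classes LZ_T lay above SG_T and below LZ, without overlap. In the SINE class LZ_T lay above LZ.

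The base at position 10 was examined next. A was at position 10 of 27.2% of member reads in SG (95% Wilson interval 27.1% to 27.3%), 24.7% and 26.7% in the LZ samples, 25.8% in PD (25.8% to 25.9%) and 28.1% in RS (28.1% to 28.2%). It was at 22.6% and 20.9% in SG_T and at 31.7% and 33.2% in LZ_T. LZ_T was above SG_T by 10.7 percentage points and above LZ by 6.81 points, with no overlap in either comparison (two-sided exact permutation test, p = 0.333 each).

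By reads, and against the mean share of A at the other positions from 2 to 20, A at position 10 was higher only in LZ_T, by 10.6 and 13.8 points. In the other 7 samples the difference ran from -2.61 to -0.0715 points. Over distinct sequences SG_T was also above the mean of the other positions, at 27.96% and 25.57% against 24.64% and 23.37%. LZ_T was further above it, at 34.82% and 35.80% against 23.50% and 22.32%, and the 5 single libraries were below it. By reads, position 10 held the most A of these positions in LZ_T replicate 2, followed by position 12 with 31.3%. In the other 8 samples position 5 held the most, with 42.2% to 45.8% in the 5 single libraries and 33.5% to 40.1% in the others. Of the 25 to 28 nt reads with another first base, 22.8% and 20.6% had A at position 10 in LZ_T.

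A at position 10 was more frequent among dispersed members than among the others. Of their reads, 56.4% and 54.4% had A at position 10 in LZ_T, 58.8% and 56.7% in SG_T, 45.5% in SG and 40.4% and 46.7% in LZ. Without them, 27.7% and 28.2% of member reads had A at position 10 in LZ_T, 21.7% and 20.1% in SG_T, 26.1% in SG and 24.4% and 25.9% in LZ. LZ_T then stayed above SG_T by 7.09 points and above LZ by 2.86 points, still without overlap.

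Exact sequences were shared unevenly between samples. Of all distinct members, 79.1% were found in 1 sample only, and they held 20.4% of all member reads. Only 821 sequences, 0.0219%, were found in all 9 samples. These 821 held 9.32% of member reads in SG, 5.34% and 6.27% in the LZ samples, 0.809% in PD and 2.21% in RS, but 47.8% and 45.8% in SG_T and 39.8% and 37.1% in LZ_T.

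For pairs of samples, reads were thinned to 31041 per sample, and the share of reads of a sample whose sequence also occurred in the other was taken. LZ replicate 1 had 26.6% of its reads in LZ replicate 2, and the reverse share was 23.4%. PD had 37.5% in RS, and RS had 37.6% in PD. The LZ samples had 27.2% and 18.04% of their reads in PD, while SG had 6.40%. SG shared more with LZ, at 16.4% and 18.4%.

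Within the technical-replicate set the shares were higher, at 67.2% for SG_T replicate 1 in SG_T replicate 2 and 63.1% for LZ_T replicate 1 in LZ_T replicate 2. Between the stages LZ_T replicate 1 had 59.8% of its reads in SG_T replicate 1, close to the share between replicates. PD had 0.817% of its reads in LZ_T replicate 1 and 32.95% in LZ replicate 1. In the other direction LZ_T replicate 1 had 13.2% of its reads in PD.

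Sequences read at least 10 times in PD held 67.0% of member reads in PD, 61.4% in RS, 45.4% and 31.1% in LZ and 10.8% in SG. They held 30.9% and 29.8% in SG_T and 25.9% and 25.4% in LZ_T, above SG and below both LZ samples. The shares in the technical-replicate set rest on lower levels, since all members were at 17142 to 36985 RPM there. The sequences were chosen on PD reads, so their share in PD follows from the rule. They include U2, U4 and U5, which led in SG_T and LZ_T and had 390, 76 and 160 reads in PD. U1, U3 and U6, which led in PD, had at most 3 reads per sample in the technical-replicate set.

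Among single members, U1 was the most abundant in PD and RS. It was read at 7.08 RPM in SG, 173 and 76.6 RPM in the LZ samples, 1038 RPM in PD, 1927 RPM in RS, 0.405 and 1.104 RPM in SG_T and 0.321 and 0.0929 RPM in LZ_T. It rose from stage to stage in the single-library set and was at 1 to 3 reads in each sample of the other. U3 was at 10.2 RPM in SG, 355 and 160 RPM in the LZ samples, 760 RPM in PD and 172 RPM in RS, with at most 1 read per sample in the technical-replicate set. Neither matched an annotated transcript.

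U6 lay in exon 1 of the lincRNA Gm49794, at chr17:27355728-27355752 on the plus strand of GRCm38. Its level was 5.34 RPM in SG, 188 and 77.6 RPM in the LZ samples, 481 RPM in PD and 120 RPM in RS, with 1 read in SG_T replicate 1 and none in the other samples of that set. U9 and U13 led in RS, at 390 and 241 RPM, and both were 28 nt long like U1. The members that led in PD and RS were thus present in LZ and nearly unread in LZ_T and SG_T.

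The members that led in SG and LZ were of another kind. U2, which matched no transcript, was at 1019 RPM in SG, 1247 and 932 RPM in the LZ samples, 29.3 RPM in PD, 6.54 RPM in RS, 497 and 245 RPM in SG_T and 305 and 250 RPM in LZ_T. U8, the extended miR-7a-5p, was at 408 RPM in SG, 72.2 and 121 RPM in LZ, 219 and 165 RPM in SG_T and 146 and 204 RPM in LZ_T. U10, from the Mir30d hairpin, was at 337 RPM in SG, 348 and 361 RPM in LZ, 262 and 156 RPM in SG_T and 233 and 217 RPM in LZ_T. All of these were lower in PD and RS, where U10 fell to 30.7 and 23.3 RPM.

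U2 was also among the 3 members that led in SG_T and in LZ_T, beside U4 and U5. U4 matched no annotated transcript, and its bases are those of the 5′ end of a glutamate tRNA. It was at 108 RPM in SG, 120 and 114 RPM in LZ, 310 and 393 RPM in SG_T and 669 and 351 RPM in LZ_T. U5 lay in exon 2 of a transcript of Rpl13, a ribosomal protein gene, at chr8:123103033-123103057 on the plus strand. It was at 204 RPM in SG, 245 and 246 RPM in LZ, 527 and 232 RPM in SG_T and 586 and 342 RPM in LZ_T. U14, which matches a snoRNA within the host gene Snhg1, and U18 were among the 3 members with the highest lowest level, at 16.6 and 18.2 RPM in their lowest sample.

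Single sequences were then compared between LZ_T and SG_T with edgeR's quasi-likelihood test over all 39580 sequences of 18 nt or longer that passed the filter on low counts. Of these, 63 were called at an adjusted p of 0.05 (0.159%), 62 higher (0.157%) and 1 lower (0.00253%) in LZ_T. Of the 176769 distinct members read in these samples, 2107 were tested, and 17 were higher and 0 lower. At an unadjusted p under 0.05 there were 603 members, and 4055 of all 39580 sequences. DESeq2 called 241 members (11.4%), and 1078 of all sequences (2.72%). Of the 649 members that passed the level in both groups, 10 were higher and 0 lower, and 7 of the 17 passed through LZ_T alone. Of the 17, 13 were dispersed repeats, and of all 2107 tested members 290 were. The number called was 9 without SG_T replicate 1, 4 without SG_T replicate 2, 38 without LZ_T replicate 1 and 3 without LZ_T replicate 2.

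U17 was at 1.48 and 0 RPM in SG_T and at 27.2 and 42.9 RPM in LZ_T. It was at 52.0 RPM in SG, 55.6 and 68.2 RPM in the LZ samples, 0 RPM in PD, and lastly 0.0797 RPM in RS. Its fitted log2 fold change was 5.13 (SE 1.01). It matched 14 genes in sense and 10 in antisense, and its level in LZ_T was below that in LZ but not called different (adjusted p = 0.290, edgeR's quasi-likelihood test with Benjamini-Hochberg adjustment).

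U19 was at 0.944 and 0.552 RPM in SG_T and at 24.3 and 37.4 RPM in LZ_T, and at most 0.687 RPM in the single-library set. Its fitted log2 fold change was 5.21 (SE 0.961). It was thus higher in LZ_T than in every other sample, and it has A at position 10. The annotation places it in hairpins that it lists as miRNA genes and in 4 genes in sense and 5 in antisense, so its match is to a repeated sequence.

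U25 and U26 had the same pattern at lower levels. U25 was at 9.48 and 18.2 RPM in LZ_T and at most 1.203 RPM in the other 7 samples, with a log2 fold change of 6.82 over SG_T (SE 1.28). U26 was at 11.9 and 16.9 RPM in LZ_T and at most 1.203 RPM elsewhere, with a log2 fold change of 6.02 (SE 1.18). SG_T replicate 2 held 0 reads of both, so these fold changes depend on the prior count.

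All 4 begin with TTTCT and share runs with the mouse B1 repeat, a SINE. U17 and U25 have the first 16 bases in common, which are letters of one stretch of that repeat, and U19 and U26 begin with the same 9 bases. No repeat consensus was searched for them. All 4 are among the 7 called members that reached the level of the filter in both samples of LZ_T only, the group where they are high, so their calls and fold changes are descriptions. All 4 lost their call without SG_T replicate 2 and in the 100-bp run alone, with their direction kept.

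Between LZ_T and LZ the same test was fitted to 85980 sequences, and 60736 were called (70.6%), 24398 higher (28.4%) and 36338 lower (42.3%) in LZ_T. With DESeq2 14842 were higher and 40179 lower. Of 2638040 distinct members read, 21881 were tested. Of these, 18642 were lower and 1629 higher, and 12899 in all were called without LZ replicate 1. Most were tested through LZ alone (18869 members) or LZ_T alone (1763 members), so that their direction was set by the filter. Of the 1024 that passed the level in both groups, 80 were lower and 155 higher, and the others were not called.

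U12 was at 192 and 84.3 RPM in the LZ samples, 270 RPM in PD and 62.3 RPM in RS, with 0 reads in all 4 samples of the technical-replicate set. LZ was at least 781-fold higher than LZ_T, with 3 reads over the LZ_T samples as the limit. For U6 the limit was 752-fold, for U15 592-fold, for U16 506-fold and for U7 500-fold. U16 differed from the others in that LZ, at 84.3 and 94.4 RPM, was as high as PD at 83.5 RPM. None of the 5 was read in LZ_T.

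The 5 higher members named by the rule were U20 to U24, and LZ held 0 reads of each. U20 was at 28.1 and 14.2 RPM in LZ_T, 9.17 and 9.94 RPM in SG_T and 0 RPM in the single-library set. LZ_T was at least 335-fold higher than LZ for U20, 272-fold for U22, 219-fold for U24, 216-fold for U21 and 208-fold for U23. In the 50-bp run none of them was read in any sample, although the sequence each resembles was read 60 to 567 times there.

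In the 100-bp run they were at 3.57% to 10.7% of the reads of the sequence they resemble, in all 4 samples. U22, for example, was at 7.77% and 8.55% of its neighbour in LZ_T and at 7.99% and 9.20% in SG_T, and at 0 of 2051 and 2803 neighbour reads in the LZ libraries. These values move with the run, and the part of run and group in them was not tested beyond this.

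By gene, the single-gene members of SG were led by D10Wsu102e, at 760 RPM in SG, 465 and 875 RPM in the LZ samples, 81.0 RPM in PD, 24.2 RPM in RS, 7.55 and 2.76 RPM in SG_T and 35.3 and 27.2 RPM in LZ_T. LZ_T lay above SG_T and was at 4.67% of LZ. Abl2, a tyrosine kinase gene, was at 473 RPM in SG and 302 and 367 RPM in LZ, but at 0.674 and 1.104 RPM in SG_T and 0.643 and 1.02 RPM in LZ_T. In both genes 99.0% or more of the located reads were in the 3′ UTR.

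Fth1, which encodes the ferritin heavy chain, was at 447 RPM in SG and 231 and 291 RPM in LZ, and at most 0.552 RPM in the technical-replicate set. Unlike the others, only 1.21% of its reads were in the 3′ UTR. Rab11fip4 and Tmem245 were at 326 and 298 RPM in SG and at most 1.02 RPM in the technical-replicate set.

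The 100 protein-coding genes with the most member reads in SG had a median of 86.4 RPM in SG, 63.0 and 75.8 RPM in the LZ samples, 2.45 RPM in PD, 1.28 RPM in RS, 0.135 and 0 RPM in SG_T and 0.321 and 0.372 RPM in LZ_T. In 96 of the 100, more than 50% of reads were in the 3′ UTR. LZ lay above LZ_T without overlap in 99 of 100, where 81.4% of the 12023 coding genes with a member read in SG did, and below it in 1, where 0.832% did. LZ_T lay above SG_T without overlap in 53, where 11.7% of all did, and SG_T above LZ_T in 6, where 1.66% did. The set was chosen for high level, and SG_T replicate 2 had reads for only 28 of the 100 genes, so the counts are not matched for depth.

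The genes at the very top in PD were long noncoding loci, while 51 of the 100 genes with the most member reads in PD were protein-coding. Gm49794 was at 203 RPM in SG, 4795 and 3087 RPM in the LZ samples, 5611 RPM in PD, 1464 RPM in RS, 3.10 and 1.104 RPM in SG_T and 1.29 and 0.557 RPM in LZ_T. Its neighbour Gm10505, on the same strand of chromosome 17, was at 1233 and 1004 RPM in LZ and 1009 RPM in PD, and at most 0.944 RPM in the technical-replicate set. On chromosome 7, Gm21269 (chr7:73816546-73838898, plus strand) and Gm10619 (chr7:73781429-73816503, minus strand) lie side by side. They were at 2459 and 738 RPM in PD and at 1112 and 301 RPM in LZ replicate 1.

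Over the 100 genes with the most member reads in PD, the median was 9.52 RPM in SG, 54.2 and 38.6 RPM in the LZ samples, 51.7 RPM in PD, 30.7 RPM in RS, 0.135 and 0 RPM in SG_T and 0.161 and 0.0929 RPM in LZ_T. LZ lay above LZ_T without overlap in 98 of 100, where 86.1% of all 7424 genes with a member read in PD did, and below it in 1, where 0.754% did. LZ_T lay above SG_T without overlap in 18 (14% of all), and SG_T above LZ_T in 7 (2.13% of all). LZ_T was at a median of 0.168% of LZ in these genes and of 0.479% in the genes that led in SG.

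The genes that led in the technical-replicate set were few and were read in both sets. Gm42418, a lincRNA that overlaps ribosomal RNA sequence, was at 428 RPM in SG, 361 and 305 RPM in LZ, 926 and 588 RPM in SG_T and 711 and 231 RPM in LZ_T. Rpl13, which holds U5, was at 232 RPM in SG, 287 and 289 RPM in LZ, 830 and 344 RPM in SG_T and 870 and 522 RPM in LZ_T. Lars2, a mitochondrial leucyl-tRNA synthetase gene, was at 35.9 RPM in SG, 27.6 and 26.9 RPM in LZ, 207 and 74.6 RPM in SG_T and 162 and 48.7 RPM in LZ_T. In these 3 genes SG_T and LZ_T overlapped. Tmem38b, which encodes an intracellular cation channel, was at 237 RPM in SG, 172 and 307 RPM in LZ, 243 and 165 RPM in SG_T and 110 and 63.5 RPM in LZ_T. Here both SG_T samples lay above both LZ_T samples.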

How the data were processed

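The authors trimmed adapters with cutadapt and deposited, for each of 13 libraries, every distinct sequence with its raw read count. They also deposited retrotransposon tables in RPM (reads-per-million), made after removing abundant noncoding RNAs and mapping the others to consensus sequences with mismatches allowed. Read counts of technical replicates were summed and RPM values averaged, which left 9 biological samples in 6 groups from GEO's stage and replicate labels. Members were all sequences of 25 to 28 nt that start with T. They were searched exactly in transcripts of the mouse annotation and in RefSeq miRNAs. A member whose first 18 bases lay in a hairpin listed as a miRNA was a miRNA match. Group means were compared with two-sided exact permutation tests. Single sequences of 18 nt or longer were tested with edgeR 4.0.16 (quasi-likelihood F test, file totals as library sizes, filterByExpr with min.count 10, Benjamini-Hochberg adjustment) in R 4.3.3, with DESeq2 1.42.0 as an alternative. The SE given with an edgeR log2 fold change is its absolute value divided by the square root of the F statistic. The test was tried on simulated counts. Sharing is the mean of 10 thinned draws. Alternatives changed the denominator, length window, scaling, filter, tool and samples. The sequences named were, by rule, the 3 most abundant of each group, the 3 with the highest lowest level over the samples, and up to 5 called members in each direction with at least 10 RPM in the higher group and no overlap, with those of one list that share their first 20 bases counted as 1. Sequences that match chromosome 18 were left out of the naming. Genes were named by their total of members. Members and lists were chosen with earlier results of these data known.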

Additional observations from a re-analysis of the deposited data

Results flagged for a closer look

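Of 20 measures compared between stages in both sets, 6 moved from SG to LZ in the direction opposite to that from SG_T to LZ_T, with every sample of each set on its side. These differences between the sets were not tested, since SG has 1 library.

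Members that match dispersed repeats were 9.91 times higher in LZ_T than in SG_T and were 0.761 times as high in LZ as in SG. The SINE sum of the authors' 24 to 27 nt values was 6.12 times higher in LZ_T than in SG_T and 0.686 times as high in LZ as in SG, and for the LINE sum the values were 1.40 and 0.670. A at position 10 of members was 1.49 times as frequent in LZ_T as in SG_T and 0.944 times as frequent in LZ as in SG. The ratio of members to longer U-starting reads was 1.19 times as high in LZ_T as in SG_T and 0.781 times as high in LZ as in SG. Members of the miRNA class, which also holds repeated sequences such as U19, were 1.54 times as high in LZ_T as in SG_T. They were 0.725 times as high in LZ as in SG.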

How the results depend on the processing

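U-starting 25 to 28 nt reads stayed higher in LZ_T than in SG_T and lower than in LZ by their means under every alternative tried. The ratios were 1.17 to 1.91 and 0.149 to 0.193 when 1 sample was left out. Their size depended on the denominator. The ratio to LZ, 0.171, was 0.362 per 24 to 33 nt reads and 0.497 per 25 to 28 nt reads. It was 0.259 at 24 to 28 nt and 0.121 in the 50-bp run. The ratio to SG_T, 1.45, was 1.38 per 24 to 33 nt reads and 1.25 per 25 to 28 nt reads. Without miRNA matches the ratio to SG_T was 1.44, but the groups overlapped, with LZ_T higher in 3 of 4 pairs of samples (exact permutation test, p = 0.667). The higher share of A at position 10 kept its direction too. With 1 sample left out it was 9.83 to 11.6 points over SG_T and 5.82 to 7.81 points over LZ. Over all alternatives the difference to SG_T ran from 7.09 points (without dispersed repeats) to 12.2 points (sequences read at least 2 times). The difference to LZ ran from 2.86 points (without dispersed repeats) to 9.34 points (distinct sequences). The stage ratios of the single-library set depended on the denominator. SG over LZ, 0.634, was 0.898 per 24 to 33 nt reads, 0.928 per 25 to 28 nt reads, 0.906 over distinct sequences and 0.923 once sequences with 10 or more PD reads were removed. PD over LZ, 1.31, turned to 0.654 per 24 to 33 nt reads and 0.833 over distinct sequences, and was 1.13 per 25 to 28 nt reads. RS over LZ, 0.666, turned to 1.12 per 25 to 28 nt reads, and was 0.339 per 24 to 33 nt reads, 0.558 over distinct sequences, 0.511 at 26 to 27 nt and 0.420 once those PD sequences were removed. With 1 LZ library left out these 3 ratios were 0.593 to 0.682, 1.22 to 1.41 and 0.623 to 0.716. Shared reads rise with depth: in unthinned lists LZ replicate 1 had 72.8% in LZ replicate 2, PD had 79.6% in RS and LZ_T replicate 1 had 71.8% in SG_T replicate 1, and among sequences read at least 2 times 80.8%, 85.1% and 84.8%. Over distinct sequences the most frequent length of both LZ samples was 27 nt. The ratio of dispersed members, LZ_T over SG_T, was 7.59 to 14.3 over all alternatives.

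Between LZ_T and SG_T, 0.159% of all tested sequences were called in the main test and 3.45% with TMM. The share was 1.12% with min.count 30, 0.137% with at least 5 reads summed, 2.72% with DESeq2 and 2.98% in the 50-bp run. The number of called members between LZ_T and SG_T, 17, was the least stable. It was 323 with TMM, 52 with min.count 30, 70 with at least 5 reads summed, 241 with DESeq2, 36 in the 50-bp run, 0 in the 100-bp run (554 at an unadjusted p under 0.05) and 3 (without LZ_T replicate 2) to 38 (without LZ_T replicate 1) with 1 sample left out. U17, U19, U25 and U26 lost their call in the 100-bp run alone and without SG_T replicate 2, U19, U25 and U26 also without SG_T replicate 1, and U17, U19 and U26 without LZ_T replicate 2, with the direction kept. Between LZ_T and LZ, 20271 members were called, and 5625 with min.count 30, 56163 with at least 5 reads summed, 13289 in the 50-bp run and 12899 (without LZ replicate 1) to 30375 (without LZ_T replicate 1) with 1 sample left out. Of all sequences tested between LZ_T and LZ, 70.6% were called in the main test and 65.7% with min.count 30. The share was 23.8% with at least 5 reads summed and 59.2% in the 50-bp run. TMM moved the median log2 change of all tested sequences from -0.17 to -0.02 and from -0.57 to -1.36. Except where the number of tested sequences or samples itself differed, the cause was not tested.

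Groups share replicate numbers that the labels tie to nothing else. Deviations of same-numbered samples correlated over members at 0.353 for SG_T and LZ_T and at -0.105 for LZ and LZ_T. With the replicate block 403 members were called between LZ_T and SG_T and 20198 between LZ_T and LZ, and the crossed pairing called 20073. Over all tested sequences these settings called 5.68%, 69.5% and 67.4%. Paired ratios were 1.48 and 0.170, and the paired differences in A at position 10 were 10.7 and 6.81 points. With 2 pairs an exact paired test cannot go below p = 0.5. Depth limits SG_T replicate 2 most, with 31041 member reads, where 3 reads are the limit for a sequence at 0.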

Other observations

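Among the 100 coding genes with the most member reads in SG, the ones with the highest level in LZ_T were looked up after their values were seen. Besides Rpl13, Tmem38b and D10Wsu102e they were Gabpb2, Cbfa2t2, Zbtb37, Mllt6 and Zyg11b. Mllt6 was at 79.0 RPM in SG, 61.5 and 75.9 RPM in LZ, 0.301 RPM in PD, 0 RPM in RS, 0.270 and 0 RPM in SG_T and 7.71 and 11.5 RPM in LZ_T. Gabpb2 was at 287 RPM in SG, 173 and 255 RPM in LZ, 2.56 and 0 RPM in SG_T and 11.1 and 13.4 RPM in LZ_T. Cbfa2t2, which encodes a transcriptional corepressor, was at 1.08 and 0.552 RPM in SG_T and 10.6 and 9.57 RPM in LZ_T. In each of these 5 genes both LZ_T samples lay above both SG_T samples and below both LZ samples, at 5.71% to 14.2% of the LZ mean, and at least 95.8% of the located reads were in the 3′ UTR. The genes were chosen by their level in LZ_T, which favours this order of the groups, so the order is a description. Rpl13 and Tmem38b, chosen the same way, did not follow it. Of all 100 genes, LZ_T lay above SG_T without overlap in 53 and LZ above LZ_T in 99.

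Twnk, which encodes the mitochondrial DNA helicase, stood apart among the genes that led in LZ_T. Its members were at 35.4 RPM in SG, 23.8 and 28.6 RPM in LZ, 9.85 and 4.42 RPM in SG_T and 44.7 and 63.7 RPM in LZ_T, so that LZ_T lay above LZ as well as SG_T. In the 50-bp run alone, dispersed members were at 347 and 271 RPM in SG_T and 2783 and 4047 RPM in LZ_T, and in the 100-bp run at 779 and 468 RPM and at 5557 and 5930 RPM.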
